A study of Mus musculus with 6 samples.

Results

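The genes described here are the netrin ligands and their receptors, 9 mouse genes listed by symbol and followed in adenomas of the small intestine with and without the miR-34 family. The list holds the ligand genes Ntn1, Ntn3 and Ntn4 and the receptor genes Dcc, Neo1, Unc5a, Unc5b, Unc5c and Unc5d. The list was selected on the adjusted p of Unc5a in the genotype comparison, which lay just outside the threshold, so the values of Unc5a in that comparison are a description and support nothing. Of the 9 genes, 8 have a row among the 46078 genes of each count table, and 6 of them had enough counts to be tested among 17254 genes.

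Netrins are secreted, laminin-related proteins that were first known for guiding growing axons. DCC and neogenin mediate attraction and the UNC5 receptors mediate repulsion. DCC and the UNC5 proteins are also called dependence receptors, because they signal survival when netrin-1 is bound and can trigger apoptosis through caspase cleavage when it is not. In the gut, netrin-1 is made near the crypt base, and human DCC takes its name from its loss in colorectal cancer. Human UNC5B and UNC5A have been described as p53-induced genes, and miR-34a, miR-34b and miR-34c are microRNAs that p53 induces.

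Every mouse was 18 weeks old, was of strain C57BL6/SV129 and carried ApcMin/+, a heterozygous truncating allele of the Wnt regulator Apc that gives rise to intestinal adenomas. The knockout group (miR-34a/b/c-/-;ApcMin/+) had 3 mice and the wild-type group (miR-34a/b/c+/+;ApcMin/+) had 3 mice. For each RNA-seq library, RNA came from 3 pooled tumors taken from the same animal, which makes the animal the replicate and averages over its tumors. A pooled adenoma holds epithelium, stroma and immune cells, and a lower count can mean fewer cells of a type or less RNA per cell, which cannot be told apart in bulk RNA.

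The 6 libraries held between 26375035 and 38354355 counts. The rows of Mir34a, Mir34b and Mir34c had 0 counts in each of the 6 libraries, the wild-type ones included, so they do not check the genotype labels. The epithelial marker Epcam averaged 2057 ± 236 CPM in knockout tumors and 2546 ± 180 CPM in wild-type ones (CPM, counts per 1000000 counts of the TMM-scaled library, mean ± SD, n = 3 each). It was 1 of 10 epithelial markers, of which 7 were lower and 3 higher in knockout tumors. Lyz1 was higher in each knockout library, and the summed level of the 10 overlapped between groups. edgeR's quasi-likelihood test called 16 of the 17254 genes (0.0927%) at an adjusted p below 0.05, 0.0406% of genes as higher and 0.0522% as lower in knockout tumors. An unadjusted p below 0.05 was reached by 1010 genes (5.85%), 3.27% higher and 2.58% lower in knockout tumors. The groups did not overlap for 1933 genes (11.2%).

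Of the mature microRNAs lost in the knockout mice, miR-34a-5p and miR-34b-5p share a seed, the stretch of bases 2 to 8 that pairs with target mRNAs. The sequence of miR-34c-5p was not used here. Those of the other two are shown because the same heptamer is sought in the netrin family below, with the seed in capitals (RefSeq, GRCm38.p6, miR-34a-5p at chr4:150068473-150068494 on the plus strand and miR-34b-5p at chr9:51103610-51103632 on the minus strand).
mmu-miR-34a-5p: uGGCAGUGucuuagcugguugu
mmu-miR-34b-5p: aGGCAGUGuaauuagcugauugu

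A site was counted in the longest annotated 3′ UTR of a gene where the sense strand read CACTGCC, CACTGCCA (an 8mer, which contains CACTGCC) or ACTGCCA (a 7mer-A1, counted only where it is not part of an 8mer). Of 14723 tested genes with an annotated 3′ UTR, 3653 (24.8%) held at least 1 such site and 948 (6.44%) an 8mer. In the netrin family, Ntn1 held 3 sites, Ntn3 held 3, Neo1 held 2 and Unc5b held 1, while Unc5a, Unc5c, Unc5d, Dcc and Ntn4 held 0. The Ntn1 sites are printed because Ntn1 is the tested member with the most sites, and those of Neo1 and Unc5b because these were the most abundant receptors. Matched bases are in capitals, and a match is a description of the sequence only.
Ntn1, 8mer at chr11:68212420-68212427, minus strand: gctttggtctcCACTGCCAcctgctgggct
Ntn1, 7mer at chr11:68212264-68212270, minus strand: agccgggtggtCACTGCCtctgctggagct
Ntn1, 8mer at chr11:68211438-68211445, minus strand: gcccacatcacCACTGCCActtactgagca
Neo1, 7mer-A1 at chr9:58875238-58875244, minus strand: ggtacctggatACTGCCAcagaatttccat
Neo1, 7mer-A1 at chr9:58874687-58874693, minus strand: agaaatgtctgACTGCCA
Unc5b, 7mer-A1 at chr10:60765021-60765027, minus strand: ctctgtgctctACTGCCAagaggccgggat

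The Ntn1 3′ UTR is 3642 bases long. Among 1703 tested genes with a 3′ UTR within 20% of that length, 47.3% held at least 1 site, 3.82% held 3 or more and 0.881% held at least 2 8mers. Among the 2288 genes near the length of the Unc5b 3′ UTR (2615 bases), 37.7% held a site, and among the 2296 near that of Neo1 (2587 bases), 9.19% held 2 or more. The Unc5a 3′ UTR is short, at 1047 bases, and these letters are not in it.

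Ntn1 encodes netrin-1, the ligand of DCC, neogenin and the UNC5 receptors (chromosome 11, 68209364 to 68400823, mm10). It had 9.06, 10.3 and 10.9 CPM in the knockout tumors and 7.92, 4.44 and 6.77 CPM in the wild-type tumors. The 3 knockout libraries lay above the 3 wild-type libraries, the closest being 9.06 in knockout replicate 1 and 7.92 in wild-type replicate 1. The means were 10.1 ± 0.958 CPM in knockout tumors and 6.38 ± 1.78 CPM in wild-type tumors, a log2 fold change of 0.66 ± 0.25 (SE), which did not pass over all genes (adjusted p = 0.793, edgeR). The pooled counts were 1025 in knockout and 638 in wild-type libraries.

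Ntn4 encodes netrin-4, a basement membrane netrin that binds laminins (chromosome 10, 93640681 to 93747207). It was the steadiest gene of the family, with 7.33, 7.30 and 7.54 CPM in knockout tumors and 7.11, 6.86 and 7.25 CPM in wild-type tumors. The groups did not overlap, but only by 7.30 in knockout replicate 2 against 7.25 in wild-type replicate 3. With 743 knockout and 706 wild-type counts in all, the log2 fold change was 0.06 ± 0.18 (adjusted p = 0.946, edgeR), and the counting interval of the pooled wild-type to knockout ratio (0.861 to 1.06, exact 95%) spans 1. Such intervals, and the limits below, describe counting error alone, because PCR copies were not marked by molecular identifiers.

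Ntn3 encodes netrin-3, a further ligand of the DCC family. Its GENCODE M21 identifier has no row of its own in the tables. Its annotated span (chromosome 17, 24203848 to 24209531) lies almost wholly within the row of the neighbouring gene Tbc1d24, which the tables give as 24175431 to 24209387 on the same strand. Ntn3 was therefore not analysed here.

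**Figure D1:**
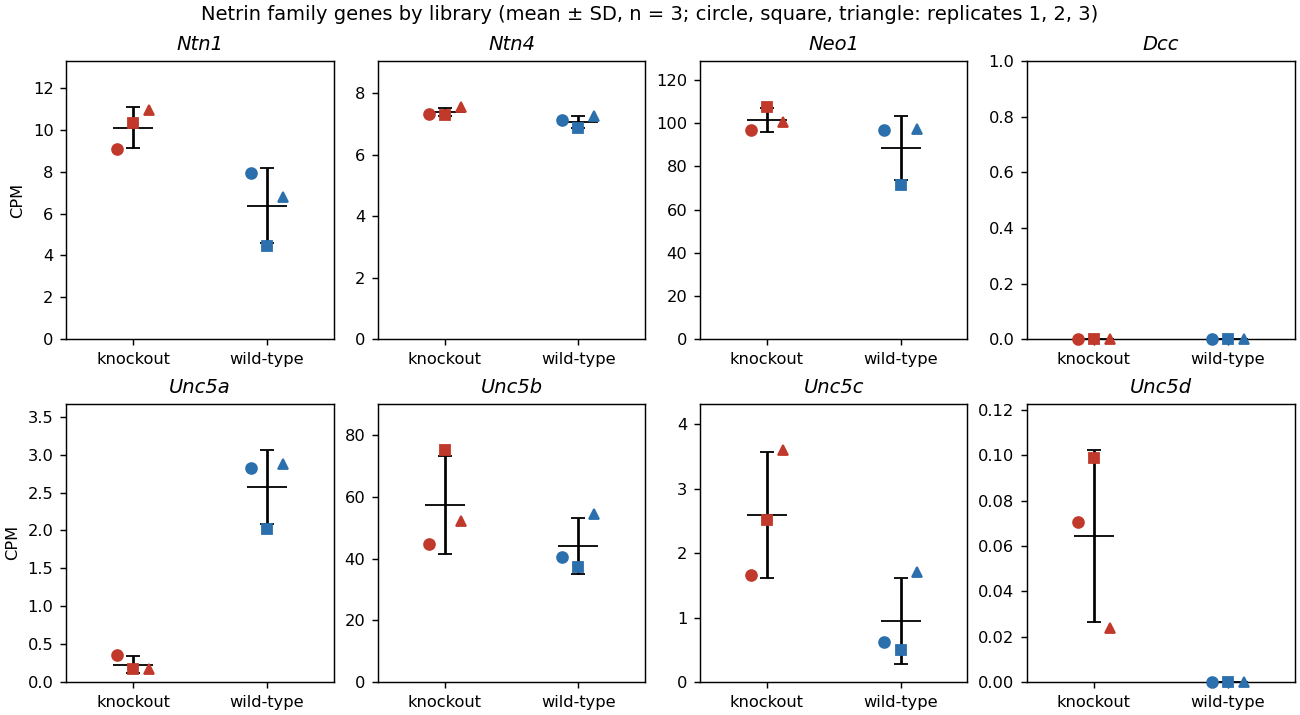
Level in CPM (y axis, own scale per panel) of the 8 netrin family genes with a row in the tables, in 3 knockout and 3 wild-type libraries (points), with mean ± SD (bars). Unc5a was at most 0.352 CPM in knockout tumors and at least 2.01 CPM in wild-type libraries, Ntn1 and Ntn4 lay higher in each knockout than in each wild-type library, Ntn4 narrowly, and Dcc had 0 counts throughout.

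The receptors of the attractive class differed widely in level. Neo1 encodes neogenin, a DCC relative that also binds the repulsive guidance molecules (chromosome 9, 58874679 to 59036441), and was the most abundant member. It had 96.7, 107 and 100.4 CPM in knockout tumors and 97.0, 71.5 and 97.3 CPM in wild-type tumors. The groups overlapped, wild-type replicate 2 was the lowest library, and the log2 fold change was 0.20 ± 0.15 (adjusted p = 0.813, edgeR), or 0.06 without that library.

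Dcc (chromosome 18, 71258738 to 72351069) had 0 counts in all 6 libraries. At 3 counts, the upper limit for a gene with none, the level would be between 0.0720 and 0.106 CPM depending on the library, so Dcc mRNA was not detectable at this depth in tumors of either genotype.

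Among the repulsive receptors, Unc5a (chromosome 13, 54949411 to 55006018) showed the genotype difference for which the family was chosen. Its counts were 10, 5 and 7 in knockout tumors and 91, 64 and 103 in wild-type tumors, or 0.352, 0.165 and 0.168 CPM in knockout tumors against 2.83, 2.01 and 2.88 CPM in wild-type tumors. The groups were far apart, and each was narrow compared with the gap between them. The means were 0.229 ± 0.107 CPM in knockout tumors and 2.57 ± 0.486 CPM in wild-type tumors, a log2 fold change of -3.50 ± 0.41 (SE). Pooled over libraries, 22 knockout counts stood against 258 wild-type counts, which puts the wild-type to knockout ratio at 11.8 (7.63 to 19.2, exact 95% counting interval). This interval leaves out variation between mice. Those of Ntn1 (0.566 to 0.692), Unc5b (0.750 to 0.812), Unc5c (0.281 to 0.452) and Neo1 (0.852 to 0.902) excluded 1 as well. The gene passed the count filter through its wild-type libraries.

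The adjusted p of Unc5a was 0.0598 (edgeR), which ranked it number 17 of 17254 genes. The gene just inside the threshold was Slc14a1 at rank 16 (adjusted p = 0.0277, edgeR), and the next one outside was 2200002J24Rik at rank 18 (adjusted p = 0.0616, edgeR). Of 15 alternatives, 3 placed Unc5a on the other side of 0.05, with an adjusted p of 4.50e-10 in DESeq2, 0.0430 in limma-voom and 0.0107 in edgeR without a count filter. The other edgeR settings with all 6 mice left it outside. Their adjusted p ranged from 0.0507 (at least 1 CPM in 3 libraries) to 0.171 (a term for sex). Its log2 fold change lay between -3.93 and -3.31 with any 1 of the 6 mice left out, where the adjusted p ranged from 0.0548 to 0.417 (edgeR).

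Unc5b (chromosome 10, 60762610 to 60831581), a netrin-1 receptor of vessels and epithelia, was the main UNC5 gene of these tumors. It had 44.8, 75.2 and 52.1 CPM in knockout tumors and 40.6, 37.3 and 54.4 CPM in wild-type tumors. Knockout replicate 2 was the highest library, and the other two knockout libraries lay within the wild-type range. The log2 fold change was 0.38 ± 0.23 (adjusted p = 0.805, edgeR), and it was 0.14 without knockout replicate 2.

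Unc5c (chromosome 3, 141465216 to 141834924), whose human counterpart is silenced in many colorectal tumors, had 1.66, 2.51 and 3.60 CPM in knockout tumors and 0.621, 0.503 and 1.71 CPM in wild-type tumors. The groups overlapped only through knockout replicate 1 and wild-type replicate 3. The means were 2.59 ± 0.974 CPM in knockout tumors and 0.944 ± 0.664 CPM in wild-type tumors, a log2 fold change of 1.45 ± 0.54, which did not pass over all genes (adjusted p = 0.793, edgeR). The value was 2.20 without wild-type replicate 3 and 1.13 without knockout replicate 3.

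Unc5d (chromosome 8, 28646717 to 29219338), a receptor best known from the cerebral cortex, had 2, 3 and 1 counts in knockout and 0 counts in each wild-type library. All 6 libraries were at or below the limit of 3 counts, so no fold is given.

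As a family, 0 of the 6 tested members passed at an adjusted p below 0.05 with edgeR, where 0.0927% of all genes did. At an unadjusted p below 0.05 there were Unc5c and Ntn1, both higher in knockout tumors, where 3.27% of all genes were higher. Unc5a, lower in knockout tumors, was also below 0.05, but the list was selected on its p, so it is not set against a background. Unc5a was the only member called by DESeq2 (0.638% of all genes), limma-voom (0.122%) or edgeR without a count filter (0.0721%), and nothing is read from that, since it chose the list. Of the 5 tested members that did not choose the list, each had a positive log2 fold change, where 51.1% of all tested genes did, and 2 had groups that did not overlap, where 5.86% of all genes lay higher and 5.34% lower in every knockout library.

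Levels can be set beside each other per length, as CPM per kilobase of annotated exon. On that scale Neo1 ranged from 8.20 to 12.3 and Unc5b from 5.95 to 12.0 over the 6 libraries, so these neighbours in the order overlapped, although Neo1 was the higher of the pair in each library. Ntn4 (1.83 to 2.01) and Ntn1 (0.707 to 1.74) came next and did not overlap. By mean level, 72.1% of tested genes lay below Neo1, 65.4% below Unc5b, 36.9% below Ntn4 and 31.0% below Ntn1.

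The order at the low end differed by genotype. Unc5a had 0.0548 ± 0.0258 CPM per kilobase in knockout and 0.618 ± 0.117 in wild-type tumors, and Unc5c had 0.135 ± 0.0509 in knockout and 0.0493 ± 0.0347 in wild-type tumors. Unc5c thus stood above Unc5a in each knockout library (narrowly in replicate 1, at 0.0866 against 0.0846), and Unc5a stood above Unc5c in each wild-type library. As a share of the summed level per length of the 4 UNC5 genes, Unc5a made up 0.325% to 1.15% in knockout and 7.30% to 9.42% in wild-type libraries, and Unc5b made up 97.3% to 98.5% in knockout and 90.1% to 92.1% in wild-type libraries. The order and the shares rest on the Unc5a values for which the list was chosen, so they are a description only. A smaller share of Unc5a also raises that of Unc5b, whose own CPM overlapped between groups. The shares depend on annotated exon lengths, which range from 4168 bases for Unc5a to 19135 bases for Unc5c.

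**Figure D2:**
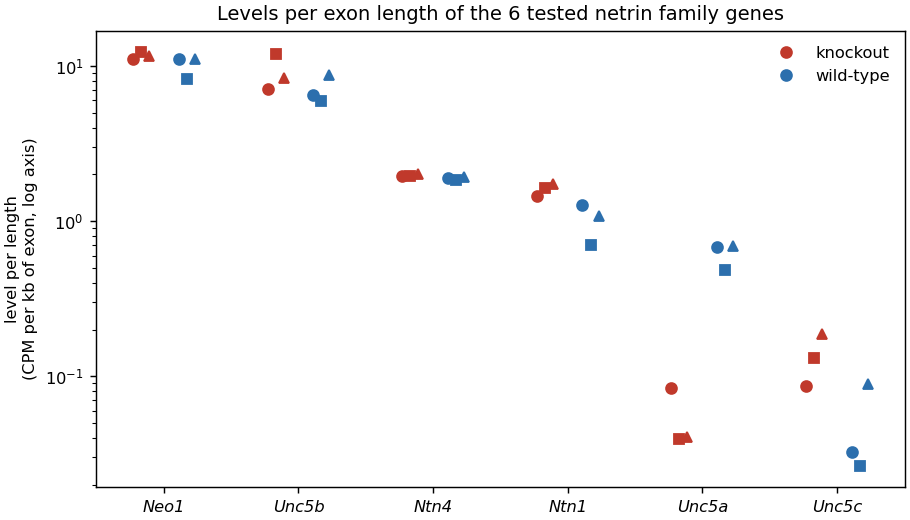
Level per length (CPM per kilobase of annotated exon, log axis) of the 6 tested netrin family genes in each knockout (left) and wild-type (right) library. Neo1 and Unc5b lay highest, and Unc5a lay between 0.0396 and 0.0846 in knockout and between 0.483 and 0.692 in wild-type libraries.

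Values of stromal marker lists are given beside those of Ntn1 and Unc5c, and 0 genes of these lists passed with edgeR, DESeq2 or limma-voom. Over all genes, 0.0927% passed with edgeR, 0.638% with DESeq2 and 0.122% with limma-voom. The summed level of 6 smooth muscle markers ranged from 524 to 628 CPM in knockout tumors and from 203 to 471 CPM in wild-type libraries, and that of 7 endothelial markers from 320 to 443 CPM in knockout and from 227 to 299 CPM in wild-type libraries, without overlap in both cases. The 8 fibroblast markers ranged from 701 to 2622 CPM in knockout tumors and from 420 to 1280 CPM in wild-type libraries, and the 5 pericyte markers from 177 to 280 CPM in knockout and from 103 to 178 CPM in wild-type libraries. Wild-type replicate 2 was lowest in each of these 4 lists, and lowest for Ntn1 and Unc5c. Knockout replicate 3 was highest for fibroblast, endothelial and pericyte markers and highest for Ntn1 and Unc5c. Other libraries were ordered differently. Knockout replicate 1 lay above knockout replicate 2 in all 4 lists (fibroblast 1410 against 701 CPM). It had less Ntn1 (9.06 against 10.3 CPM) and less Unc5c (1.66 against 2.51 CPM). Wild-type replicate 1 lay above wild-type replicate 3 in smooth muscle, endothelial and pericyte markers, with more Ntn1 but less Unc5c (0.621 against 1.71 CPM). No marker of these lists was at 0 in all libraries, and their part in the Ntn1 and Unc5c values was not tested.

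**Figure D3:**
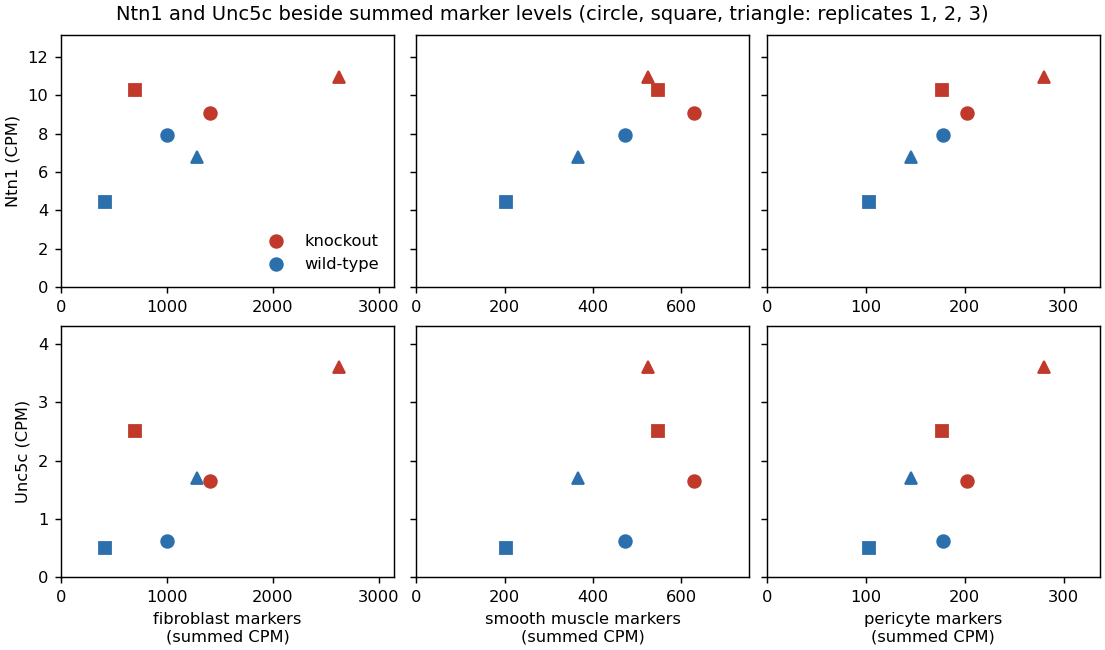
CPM of Ntn1 (top) and Unc5c (bottom) against the summed CPM of fibroblast, smooth muscle and pericyte markers in 3 knockout and 3 wild-type libraries. Wild-type replicate 2 (blue square) was lowest on every axis, and knockout replicate 3 (red triangle) was highest for both genes and for the fibroblast and pericyte markers. Knockout replicate 1 (red circle) lay above knockout replicate 2 (red square) for each marker list and below it for both genes.

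Other lists bear on Unc5a, which is known mainly from neurons. Markers of enteric glia summed to between 5.18 and 5.60 CPM in knockout tumors and between 6.13 and 9.06 CPM in wild-type libraries. Among them S100b averaged 1.10 ± 0.112 CPM with the knockout and 2.54 ± 0.171 CPM without it, a log2 fold change of -1.21 ± 0.26 (adjusted p = 0.581 in edgeR and 0.0115 in DESeq2). Enteric neuron markers ranged from 29.7 to 43.0 CPM in knockout tumors and from 28.4 to 42.7 CPM in wild-type libraries, and enteroendocrine markers from 72.1 to 101 CPM in knockout and from 72.4 to 138 CPM in wild-type libraries. The neuron and enteroendocrine sums thus overlapped between genotypes and the glial sums did not. Ret was the largest part of the neuron sum, with 17.7 to 32.9 CPM in knockout and 23.0 to 32.5 CPM in wild-type libraries. Of the 7 tested neuron markers, 5 were higher and 2, Ret among them, lower in knockout tumors (median log2 fold change 0.50). Snap25 was higher in each knockout library, where 5.86% of all genes were. The part of these 3 lists in the Unc5a value was not tested.

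Epithelial markers summed to between 11786 and 14004 CPM in knockout tumors and between 11458 and 15381 CPM in wild-type libraries, tuft markers to between 196 and 291 CPM in knockout and between 174 and 280 CPM in wild-type libraries, and macrophage markers to between 88.0 and 135 CPM in knockout and between 67.0 and 106 CPM in wild-type libraries. B and plasma cell markers ranged from 252 to 744 CPM in knockout tumors and from 910 to 1374 CPM in wild-type libraries, and T cell markers from 12.0 to 34.0 CPM in knockout and from 25.3 to 32.9 CPM in wild-type libraries. Of these lists, the sums were separated between groups only for B and plasma cells. Jchain made up most of that sum, with 245 to 726 CPM in knockout and 890 to 1343 CPM in wild-type libraries. Mzb1 and Ms4a1 did not overlap either, and Cd79a did. Thus 3 of the 4 tested markers of this list were lower in each knockout library, where 5.34% of all genes were. Avil made up most of the tuft sum and overlapped, as did Dclk1. Trpm5 and Pou2f3 were higher in each knockout library, where 5.86% of all genes were.

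Genes beside Unc5a on chromosome 13 had values nearer 0. Within 500000 bases on either side, 28 genes were tested, 14 with a positive and 14 with a negative log2 fold change, and the median was -0.0028. Of these, 0 passed with edgeR, DESeq2 or limma-voom, where 0.0927%, 0.638% and 0.122% of all genes did. An unadjusted p below 0.05 (edgeR) was reached by 0 of the 28, and by 5.85% of all genes. The lowest value was that of Tspan17 (-0.43 ± 0.31) and the highest that of Prr7 (0.65 ± 0.33). Hk3, a hexokinase gene on the opposite strand, overlaps the 3′ end of Unc5a by 34 bases and had 32, 75 and 69 counts in knockout and 40, 53 and 47 counts in wild-type libraries, which overlapped. No 50-base stretch of an annotated Unc5a transcript occurred in a transcript of another gene.

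**Figure D4:**
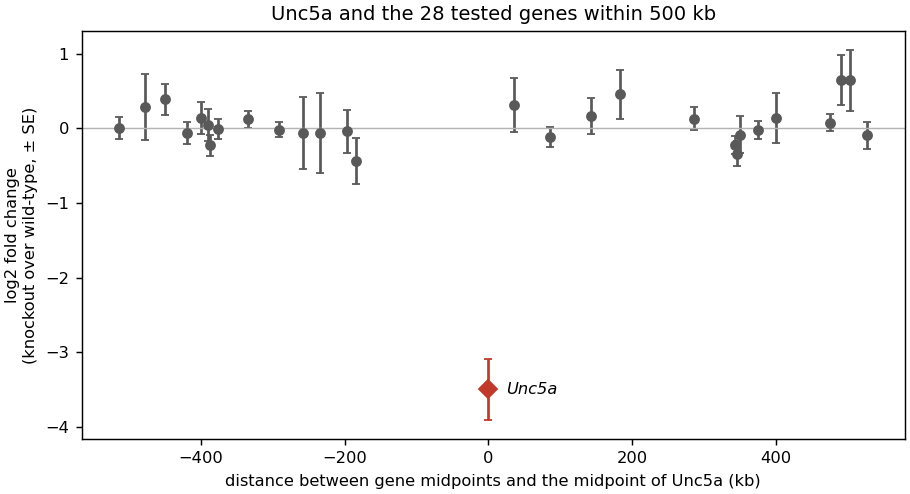
Log2 fold change (knockout over wild-type, ± SE) of Unc5a (diamond) and of the 28 tested genes within 500000 bases (circles), by the distance of each gene's midpoint from that of Unc5a in kb. Unc5a stood at -3.50, and its neighbours between -0.43 and 0.65.

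The genes with the most similar pattern were sought by Pearson's r of log2 CPM over the 6 libraries. The 5 closest were Fancc, a Fanconi anemia gene of DNA crosslink repair (r = 0.997), Cdk20, a cyclin-dependent kinase gene (r = 0.994), Serpina9, a serine protease inhibitor gene (r = 0.992), Asb18, of the ankyrin repeat and SOCS box family (r = 0.988), and Tmem147, a membrane protein gene (r = 0.983). All 5 had lower values in each knockout than in each wild-type library, and the points fall into the 2 genotypes, so r is a description. Fancc averaged 5.77 CPM in knockout tumors and 11.3 CPM in wild-type tumors and Asb18 averaged 1.12 CPM in knockout tumors and 8.08 CPM in wild-type tumors, while Cdk20 differed far less, with 4.04 CPM in knockout tumors and 5.05 CPM in wild-type tumors. Fancc and Cdk20 lie on chromosome 13 like Unc5a, 8.30 and 9.43 Mb farther along.

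Further partners of the family came from lists of textbook members, and a count in each direction is given beside the background over all tested genes, whose median log2 fold change was 0.0073. Of 28 other netrins, netrin-binding proteins and ligands of the same receptors, 22 were tested, 15 with positive and 7 with negative values, with a median of 0.11. Hspg2, the basement membrane proteoglycan perlecan, averaged 89.1 ± 24.3 CPM in knockout tumors and 57.1 ± 7.81 CPM in wild-type tumors (adjusted p = 0.793, edgeR). Mcam, a vessel adhesion protein also described as a netrin-1 receptor, averaged 41.7 ± 9.98 CPM in knockout tumors and 25.8 ± 7.38 CPM in wild-type tumors (adjusted p = 0.793, edgeR). Lamc1, a laminin chain related to netrins, averaged 141 ± 51.5 CPM in knockout tumors and 77.9 ± 30.6 CPM in wild-type tumors. For all 3 genes the groups overlapped. Hspg2 and Mcam, 2 of the 22 tested genes, had an unadjusted p below 0.05, which 5.85% of all genes had. Rgma, a repulsive guidance molecule that binds neogenin, averaged 4.62 ± 0.492 CPM in knockout tumors and 3.26 ± 1.36 CPM in wild-type tumors.

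Of 29 signalling partners downstream of the receptors 26 were tested, 16 with positive and 10 with negative values, and the median was 0.11. Of these 26, 0 had an unadjusted p below 0.05 (edgeR), where 5.85% of all genes did. The smallest p belonged to Tubb3, a neuronal tubulin bound by DCC and UNC5C, with 2.31 ± 0.655 CPM in knockout tumors and 1.36 ± 0.499 CPM in wild-type tumors (a log2 fold change of 0.76 ± 0.40), and to Ablim3, an actin-binding protein gene, with 2.28 ± 0.233 CPM in knockout tumors and 1.51 ± 0.479 CPM in wild-type tumors. Of the 18 genes of dependence receptor death signalling 17 were tested, 9 with positive and 8 with negative values (median 0.06). Again 0 had an unadjusted p below 0.05, against 5.85% of all genes. Appl1, which links DCC to caspase-9, averaged 42.2 ± 4.70 CPM in knockout tumors and 33.4 ± 5.20 CPM in wild-type tumors. Fhl2, a LIM-domain protein gene, averaged 55.5 ± 6.75 CPM in knockout tumors and 45.1 ± 5.94 CPM in wild-type tumors. Casp9 averaged 27.7 ± 2.78 CPM in knockout tumors and 29.7 ± 2.51 CPM in wild-type tumors, with overlapping groups.

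Of 16 dependence receptors of other families 13 were tested, 11 with positive and 2 with negative values (median 0.22). Notch3, a receptor of pericytes and smooth muscle that is also in the pericyte marker list, averaged 14.2 ± 4.01 CPM in knockout tumors and 9.36 ± 0.166 CPM in wild-type tumors (adjusted p = 0.793, edgeR). It was the 1 gene of the 13 with an unadjusted p below 0.05 (edgeR), which 5.85% of all genes had. Notch3 and Cdon, 2 of the 13, were higher in each knockout library, where 5.86% of all genes were. Cdon averaged 14.6 ± 0.408 CPM in knockout tumors and 12.3 ± 1.65 CPM in wild-type tumors. Ptch1, the Hedgehog receptor, averaged 46.4 ± 10.8 CPM in knockout tumors and 37.0 ± 7.24 CPM in wild-type tumors.

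The other guidance families, slits, robos, semaphorins, plexins and neuropilins, had 34 of 36 genes tested, 23 with positive and 11 with negative values and a median of 0.27. By edgeR 0 passed, and 5 had an unadjusted p below 0.05, which 5.85% of all genes had. The groups did not overlap for 6 genes higher and 2 lower in knockout tumors, against 11.2% of all genes in either direction. Plxna4, a semaphorin co-receptor gene, averaged 7.50 ± 3.22 CPM in knockout tumors and 2.50 ± 0.812 CPM in wild-type tumors. Its log2 fold change was 1.58 ± 0.39, with an adjusted p of 0.763 in edgeR and 0.0223 in DESeq2. Sema6c, a transmembrane semaphorin gene, averaged 0.609 ± 0.214 CPM in knockout tumors and 0.289 ± 0.0429 CPM in wild-type tumors, and Plxna1, a plexin gene, averaged 65.5 ± 7.54 CPM in knockout tumors and 49.9 ± 8.33 CPM in wild-type tumors. The values of the slit ligands had opposite signs, with Slit3 at 8.85 ± 3.05 CPM in knockout tumors and 3.98 ± 1.87 CPM in wild-type tumors (adjusted p = 0.793, edgeR) and Slit2 at 15.6 ± 0.774 CPM in knockout tumors and 20.2 ± 2.96 CPM in wild-type tumors (adjusted p = 0.793, edgeR). These 5 genes are among those without overlap.

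The list of p53 target genes, included because UNC5 genes and miR-34 are described as p53-induced, had 22 of 22 genes tested, 11 with positive and 11 with negative values and a median of 0.01. By edgeR 0 passed, and Zmat3 and Rrm2b, 2 of the 22, had an unadjusted p below 0.05, which 5.85% of all genes had. Zmat3 averaged 43.7 ± 5.26 CPM in knockout tumors and 33.9 ± 3.25 CPM in wild-type tumors, and Cdkn1a, the cell cycle inhibitor p21, averaged 126 ± 21.8 CPM in knockout tumors and 151 ± 22.3 CPM in wild-type tumors. Apart from Plxna4 and, in the glial markers, S100b, DESeq2 called no gene of these lists, and limma-voom called none.

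**Figure D5:**
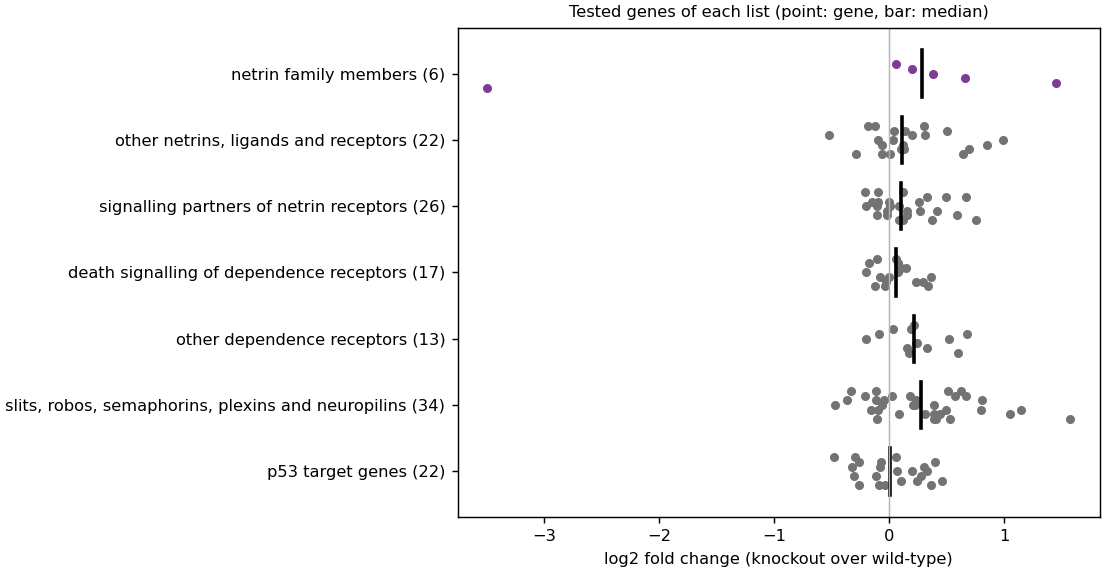
Log2 fold change (knockout over wild-type) of each tested gene (points) in the netrin family and 6 related lists, with the median of each list (bars) and the number of tested genes in brackets. Unc5a stood at -3.50, whereas the medians of the related lists lay between 0.01 and 0.27.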

How the data were processed

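RNA-seq of small intestinal adenomas was used from 3 knockout and 3 wild-type mice, grouped by sample title. The deposited values are raw counts per Ensembl gene, in 1 table per library. The submitters' processing notes name TopHat2 2.1.0, HTSeq 0.6.1 and mm10. Strand setting, annotation release and the handling of reads with several alignments are not given in those notes or labels. Symbols, exon lengths and 3′ UTRs came from GENCODE M21 (GRCm38), which matched 45143 of 46078 identifiers, 45106 of them on the same chromosome. Gene coordinates are those of the deposited tables, counted from 1. Those of Ntn3, the microRNAs and the sites are from the reference.

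Genes were filtered with filterByExpr (17254 left), normalized by TMM (factors from 0.914 to 1.09) and compared by edgeR 4.0.16 in R 4.3.3 with the robust quasi-likelihood F-test and Benjamini-Hochberg adjustment over all genes at 0.05. The common biological coefficient of variation equalled 0.293. The SE was derived from the F statistic, as the absolute log2 fold change divided by the root of F. Likeness to Unc5a used log2(CPM + 0.1). Tested on simulated counts with known changes, the fit recovered their direction and size. It did not call all of the changed genes, and the share of false calls exceeded the threshold of 0.05.

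The members, the lists (from textbook knowledge) and the tests were chosen with earlier results of these data known. The genes named were all members, the genes next to Unc5a at the threshold, the 5 most like it, and in each gene list the 2 to 4 genes with the smallest p. Rgma, Casp9, Cdkn1a, Slit2, Tbc1d24, Ntn5, Sec1 and the neighbours of Unc5a were named outside that rule. So were the single genes named from the cell type marker lists, such as Epcam, Lyz1, S100b, Ret, Snap25, Jchain and Trpm5. Neighbours, shares of the UNC5 level and shared 50-base stretches were added after the data were seen. Alternatives were DESeq2 1.42.0, its size factors within edgeR, limma-voom (limma 3.58.1), unscaled library sizes, no filter on counts, a minimum of 1 CPM in 3 libraries, a non-robust fit, the replicate number as a block, a term for sex, leaving out each mouse, an adjusted p of 0.1 and 8mer sites only. The result of 1 listed gene is not reported here.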

Additional observations from a re-analysis of the deposited data

How the results depend on the processing

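The number of called genes was 16, and DESeq2 called 110. Leaving out a mouse gave between 9 (knockout replicate 1 out) and 41 (knockout replicate 2 out), with 10 when knockout replicate 3 and 29 when wild-type replicate 3 was left out. The number of called netrin family members was 0 in each fit that left out a mouse. It was 1 with no count filter, with DESeq2, with limma-voom and at an adjusted p below 0.1, the member being Unc5a each time. The cause was not tested. With the replicate number as a block 14 genes and 0 members passed, and the adjusted p of Unc5a was 0.0896 (edgeR). The numbers are not stated to pair mice: deviations from the group means correlated at 0.218, 0.273 and 0.0810 across genes for numbers 1, 2 and 3, and knockout replicate 3 correlated best with wild-type replicate 1 (0.179). With a term for sex, read from Xist and Y-linked counts, 11 genes and 0 members passed. Knockout replicate 2 and wild-type replicate 3 were read as male and the other libraries as female. The log2 fold changes of the 6 tested members kept their direction in all 15 alternatives. Of 105 list medians under alternatives, 97 moved by less than the spread between replicates. With a mouse left out, the medians ranged from 0.12 (wild-type replicate 2 out) to 0.48 (knockout replicate 2 out) for slits to neuropilins, from 0.02 (wild-type replicate 2 out) to 0.21 (wild-type replicate 1 out) for signalling partners and from 0.11 (knockout replicate 3 out) to 0.31 (knockout replicate 2 out) for other dependence receptors. They ranged from -0.0018 (knockout replicate 2 out) to 0.22 (wild-type replicate 3 out) for the other netrins, ligands and receptors, from -0.03 (knockout replicate 3 out) to 0.10 (knockout replicate 2 out) for death signalling and from -0.05 (wild-type replicate 2 out) to 0.07 (wild-type replicate 3 out) for p53 targets. Members with a miR-34 site numbered 4, or 2 counting 8mers only. Depth limits the low end, with 22 Unc5a counts in knockout tumors and 6 Unc5d counts in all.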

Other observations

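Ntn5, a netrin gene that fell below the count filter, was named after its values were seen. Its counts were 0, 5 and 3 in knockout tumors and 5, 3 and 77 in wild-type tumors, so that wild-type replicate 3 held most of its reads. Sec1, which overlaps it, had 2, 6 and 15 counts in knockout and 5, 5 and 23 counts in wild-type libraries.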
